A study of Mus musculus with 98 samples.

Results

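Among the nonepithelial thymic stroma (NETS) of WT mice, 4322 of 36208 labelled cells carried the deposited label Pr for proliferating cells. The study lists them as proliferating fibroblasts and in its text as proliferating cells. By the lineage profiles below the first name covers most of the cells, most of the others being closest to mural cells or neural crest. From RNA velocity the study placed subclusters of proliferating cells on paths to pericytes and smooth muscle as well as to fibroblasts. The Pr cells were chosen by their label alone, and the deposited clusters 9, 10 and 11 made up the label, with 1647, 1435 and 1240 cells. They came from 8 libraries at 5 ages, in which live Ter119-CD45-EpCAM- thymic cells had been sorted and captured for single-cell RNA sequencing: 1 library each of embryos at E12.5 and E13.5 (each from thymi pooled over litters), and 2 each at E16.5, at birth (P0) and at 4 weeks of age (W4). All mice were wild-type, so age was the only labelled difference between groups. The questions asked were in which part of the cell cycle these cells were, which lineage transcripts they carried beside the cycle genes, and how both changed with age. Per-library values are given in the order E12.5, E13.5, E16.5 replicates 1 and 2, P0 replicates 1 and 2, and W4 replicates 1 and 2.

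A cell that divides first copies its DNA in S phase and then separates the copies in G2 and mitosis (G2/M). S phase is served by the E2F targets, which include the helicase that opens replication origins, the clamp that holds the polymerase and the enzymes that make nucleotides. Genes of G2/M build the spindle, condense chromosomes and mark mitotic proteins for destruction. Fibroblasts, mural cells around vessels and neural crest derivatives form most of the thymic mesenchyme, and their expansion belongs to fetal growth of the organ.

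The libraries held 28583048 to 93040640 unique molecular identifiers (UMIs, each counting 1 captured transcript), of which the Pr cells held 355584 to 20735174. The sums over Pr cells at W4 rested on 29 cells in each library, against 373 to 1301 cells at the other ages, so that 3 UMIs, the limit that a count of 0 allows, stood for 8.44 and 6.95 UMIs per 1000000 UMIs of the same cells (CPM) there and for 0.145 to 0.474 CPM elsewhere. Of the Pr cells' barcodes, 2 occurred in more than 1 library. The E16.5 replicates lay close to each other (chi-square per degree of freedom 1.85 over Pr counts, where 1 would be sampling noise), in contrast to 9.49 at P0 and 8.34 at W4. More than a single thymus was sorted at each replicated age, but the labels did not tie a thymus to a library, so p-values measured the spread between libraries, which may be technical.

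Pr cells grew scarce with age. They made up 18.7, 23.1, 14.1, 14.7, 8.40, 7.33, 1.13 and 0.887% of the labelled cells of each library. The replicates of each age lay close together, and the ages from E16.5 on did not overlap. The exact 95% intervals ran from 22.1 to 24.3% at E13.5 and from 0.595 to 1.27% in the second W4 library, and like all such intervals below they cover counting error only. Tested on cell numbers with edgeR's quasi-likelihood test, the share differed by age with a log2 difference of -4.37 between W4 and the early embryo (the mean of E12.5 and E13.5; Benjamini-Hochberg adjusted p = 0.000252 over the 19 labels). Of these 19 labels, 16 passed the same test.

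**Figure D1:**
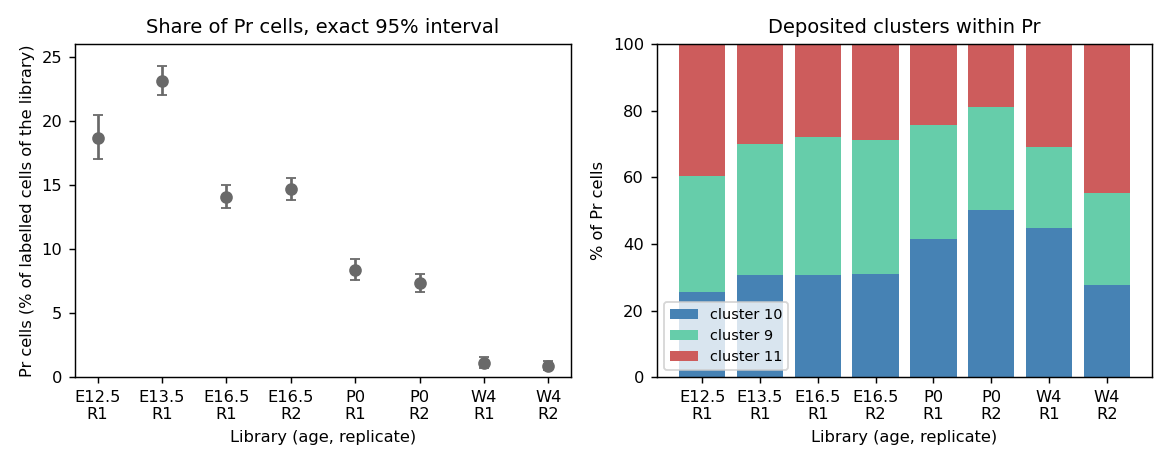
Left, Pr cells as % of the labelled cells of each library, with exact 95% binomial intervals; right, the % of Pr cells in deposited clusters 9, 10 and 11 of each library. The share went from 23.1% at E13.5 to 0.887% in the second W4 library, while all 3 clusters were present in every library.

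The 2 genes that mark the label were common in these cells up to birth. Mki67, which coats mitotic chromosomes, had a UMI in 80.3% of Pr cells and in 9.15% of the other NETS cells, and Top2a, the topoisomerase that untangles copied DNA, in 85.4% and 13.4%. Median depth was 16687.5 UMIs in Pr cells and 11853 in the others. With every cell thinned to 5000 UMIs, the shares were 63.7% against 4.77% for Mki67 and 72.97% against 6.86% for Top2a. The first W4 library stood apart: Mki67 had a UMI in 20.7% of its 29 Pr cells, against 72.4% in the second, with median depths of 7562 and 13047 UMIs. Because the cells had been clustered on these genes, the values describe the label and do not test it.

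The summed levels of both genes differed less than the share of cells. Mki67 had 321, 322, 498, 489, 326, 325, 245 and 317 CPM, and Top2a had 554, 621, 788, 773, 619.6, 578, 318 and 347 CPM. Both were highest in the E16.5 libraries, and Top2a was lowest at W4. Mki67 rose from the early embryo to E16.5 and fell to P0, with log2 changes of 0.82 (SE 0.13, adjusted p = 0.000893) and -0.72 (SE 0.13, adjusted p = 0.0111). From P0 to W4 its change was -0.37 (SE 0.15, adjusted p = 0.167) and did not pass the test, whereas Top2a fell by 1.01 on the log2 scale (SE 0.13, adjusted p = 0.00218).

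The 3 clusters separated Pr cells by cycle state. Cluster 10 was led by genes of the start of S phase: Ung, which removes uracil from DNA, had 94.98 CPM there against 12.47 and 2.59 CPM in clusters 9 and 11, and Cdc6, which loads the replicative helicase, had 75.3 CPM against 28.4 and 2.07 CPM. In cluster 9 the linker histone gene Hist1h1b, made while DNA is copied, reached 1032.5 CPM against 128.3 and 81.997 CPM in clusters 10 and 11, beside Top2a at 1099 CPM. Cluster 11 was led by genes of mitosis: Cenpa, the histone of the centromere, had 872 CPM against 349 CPM in cluster 9 and 22.5 CPM in cluster 10, and Cdc20, which activates the ubiquitin ligase of anaphase, had 435 CPM against 172.6 and 17.6 CPM. These genes had shaped the clusters and are given without a test. The inhibitor gene Cdkn1c was at 1549, 1963 and 1949 CPM in clusters 9, 10 and 11.

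Cluster 10 held 25.7, 30.6, 30.5, 30.9, 41.6, 50.1, 44.8 and 27.6% of the Pr cells of each library. Both P0 libraries lay above all embryonic ones, but the 2 W4 libraries lay far apart. The exact permutation test over all 5040 assignments of the 8 libraries to ages (two-sided, with a smallest possible p of 0.00238) gave p = 0.336. For cluster 9 the shares were 34.6, 39.4, 41.6, 40.3, 34.01, 31.03, 24.1 and 27.6%. They were lowest at W4, with p = 0.0190 in the same exact test, and 0.0571 or 0.0762 in exact tests without the second P0 or either E16.5 library. Cluster 11 held 39.7, 30.1, 27.8, 28.8, 24.4, 18.9, 31.03 and 44.8%, with p = 0.243 in this exact test, and without the first W4 library exact p = 0.0476, with the other W4 library highest. These 3 tests were added after the data had been seen, with no adjustment over them.

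Cycle state was also read from 2 published gene lists, 43 genes of S phase and 54 of G2/M, after thinning each cell to 5000 UMIs, which left out 68 Pr cells as too shallow (10 of them in the first W4 library). A list was called on when a cell held more of its UMIs than 99% of the 4773 W4 cells of the other labels, that is over 7.28 UMIs for S and over 14 UMIs for G2/M. Both lists were on in 70.5% of Pr cells, S alone in 11.7%, G2/M alone in 16.9% and neither in 0.846%. The calls were cut from a continuous range, and 279 cells lay within 1 UMI of the S threshold and 194 within 1 UMI of the G2/M threshold. In cluster 10, 35.2% of cells had S alone on and 0.0710% G2/M alone, whereas in cluster 11 the shares were 0.0824% and 53.5%.

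The S list was on in 87.4, 88.6, 76.6, 75.9, 82.2, 87.2, 47.4 and 46.2% of the Pr cells of each library. Up to birth every library had over 3 in 4 cells with the list on, and both W4 libraries lay far below. The difference between ages had p = 0.0119 in the exact permutation test, but exact p = 0.140 without the Pr cells that carried blood markers, 0.114 in those of fibroblast profile alone and 0.0905 at 2000 UMIs per cell. The G2/M list was on in 90.9, 94.1, 89.96, 88.9, 76.7, 69.95, 31.6 and 57.7% of cells. It was lower at P0 than in any embryonic library and lowest at W4, where the replicates were far apart, and the exact permutation test gave p = 0.0857, or 0.0238 in cells of fibroblast profile alone. Cells with neither list on were 0.0772 to 1.97% of Pr cells up to birth and 36.8 and 30.8% at W4, that is 7 of 19 and 8 of 26 thinned cells. Median depth of Pr cells was 7562 and 13047 UMIs at W4 against 15364.5 to 18155 before, and the part of depth and of the small cell number in the W4 shares was not tested beyond the thinning.

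**Figure D2:**
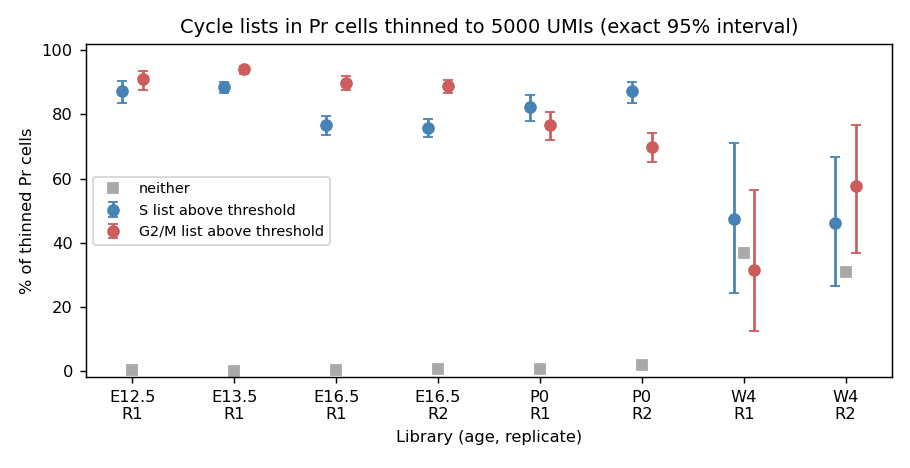
The % of Pr cells, thinned to 5000 UMIs, with the S list on and with the G2/M list on in each library, with exact 95% intervals of counting error, and with neither on (squares). The S list was on in 75.9 to 88.6% of cells up to birth and in 47.4 and 46.2% at W4, and the G2/M list went from 94.1% at E13.5 to 31.6% in the first W4 library.

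The cycle lists were also on in some cells of other labels. By the same thresholds the S list was on in 20.2% and the G2/M list in 6.59% of the other NETS cells, against 82.2% and 87.5% of Pr cells. By library the S list was on in 46.8, 48.5, 20.8, 20.8, 15.1, 9.03, 1.02 and 0.992% of the other cells. For the G2/M list these shares were 14.4, 16.3, 8.78, 6.75, 3.43, 1.53, 0.878 and 0.992%. The thresholds had been set on the other cells at W4, which fixed the low W4 shares in advance. Mki67 and Top2a both had a UMI in 1.42% of the other thinned cells and in 54.5% of the thinned Pr cells. The endothelial label EnC had the G2/M list on in 44.4, 43.9, 43.9, 24.2, 5.65, 2.07, 4.11 and 3.33% of cells by library, and 9.15% of all its thinned cells had both Mki67 and Top2a. The neural crest label (NC) had it on in 17.5% of its cells over all ages.

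Promoters of the cycle lists were read to show the sequence elements that their genes are known to share. The CHR element (cell cycle genes homology region, TTTGAA) and the CCAAT box are bound at G2/M promoters by the MuvB complex and NF-Y, and E2F sites, searched here as TTTGGCGC or TTTCCCGC, are bound at S-phase promoters by the E2F factors. Each motif was searched on both strands in the 300 bases from 250 before to 50 after the start of the gene (RefSeq, GRCm38.p6), for which 47 of 54 G2/M genes and 31 of 43 S genes had an entry. TTTGAA was in 70.2% of the G2/M promoters, in 19.4% of the S promoters and in 20.2% of all 27025 promoters. CCAAT was in 76.6, 71.0 and 41.1%, and both were in 55.3, 12.9 and 7.97%. The E2F letters were in 4.26, 32.3 and 1.80%. The 5 promoters below show both kinds, for the spindle-phase genes Ube2c, Cdk1 and Cdc20 (chr2:164769679-164769978 on the plus strand, chr10:69352863-69353162 and chr4:118437294-118437593 on the minus strand) and the replication genes Mcm6 (chr1:128359656-128359955, minus) and Cdc6 (chr11:98907901-98908200, plus), each on the strand of its gene from 5′ to 3′ with the matches of the 3 motifs on either strand in capitals.
Ube2c: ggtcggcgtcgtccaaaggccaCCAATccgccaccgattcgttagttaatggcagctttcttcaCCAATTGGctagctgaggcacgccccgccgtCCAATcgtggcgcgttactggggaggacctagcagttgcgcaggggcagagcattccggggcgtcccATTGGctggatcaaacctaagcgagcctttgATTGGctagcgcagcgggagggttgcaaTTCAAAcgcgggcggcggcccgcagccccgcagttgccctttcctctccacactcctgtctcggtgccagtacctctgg
Cdk1: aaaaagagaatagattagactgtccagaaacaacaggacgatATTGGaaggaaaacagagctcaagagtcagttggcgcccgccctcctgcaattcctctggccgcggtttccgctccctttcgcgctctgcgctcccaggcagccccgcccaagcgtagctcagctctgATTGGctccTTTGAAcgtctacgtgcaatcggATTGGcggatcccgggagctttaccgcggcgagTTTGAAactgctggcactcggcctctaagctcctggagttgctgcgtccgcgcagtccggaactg
Cdc20: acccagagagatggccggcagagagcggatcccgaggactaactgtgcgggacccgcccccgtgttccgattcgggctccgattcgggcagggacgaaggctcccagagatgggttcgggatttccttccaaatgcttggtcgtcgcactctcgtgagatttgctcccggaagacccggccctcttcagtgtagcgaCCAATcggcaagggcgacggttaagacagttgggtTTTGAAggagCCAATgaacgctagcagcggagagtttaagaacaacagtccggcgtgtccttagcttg
Mcm6: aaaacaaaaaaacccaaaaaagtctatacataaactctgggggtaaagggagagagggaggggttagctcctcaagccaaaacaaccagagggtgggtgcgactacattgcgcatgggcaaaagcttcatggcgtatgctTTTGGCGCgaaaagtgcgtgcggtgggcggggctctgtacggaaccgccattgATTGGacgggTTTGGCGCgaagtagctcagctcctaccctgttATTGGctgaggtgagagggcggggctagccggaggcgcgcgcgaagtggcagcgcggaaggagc
Cdc6: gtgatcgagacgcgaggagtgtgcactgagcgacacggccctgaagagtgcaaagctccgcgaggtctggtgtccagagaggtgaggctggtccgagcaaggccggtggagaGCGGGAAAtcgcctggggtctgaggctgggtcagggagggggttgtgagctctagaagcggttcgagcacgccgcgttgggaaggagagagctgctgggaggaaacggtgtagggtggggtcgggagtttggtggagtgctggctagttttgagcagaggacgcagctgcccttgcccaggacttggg
Ube2c held 1 CHR match and 6 CCAAT matches, Cdk1 2 and 3, Cdc20 1 and 2, while Mcm6 held 2 E2F and 2 CCAAT matches and Cdc6 1 E2F match. A match is a description of the letters and no evidence of binding in these cells.

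Summed over the Pr cells of each library, more genes of G2/M than of S phase changed with age. Across all genes, 14254 were tested with edgeR's quasi-likelihood test and 7962 of them (55.9%) differed by age at an adjusted p under 0.05. Between the early embryo and E16.5, 3598 genes were higher (25.2%) and 3241 lower (22.7%). Between E16.5 and P0, 804 were higher (5.64%) and 678 lower (4.76%), and between P0 and W4, 665 were higher (4.67%) and 878 lower (6.16%). With DESeq2 the last comparison gave 1121 higher and 837 lower, and without the cells with blood markers edgeR gave 265 higher and 666 lower. E12.5 and E13.5 had 1 library each, which the fit assumed to vary like the replicated ages. The spread shared by all comparisons rested partly on the E16.5 replicates: without the first or the second of them, 3074 or 3098 genes differed from the early embryo, 22 or 2 at P0 and 708 or 698 at W4. Without the first W4 library 842 genes differed at W4. Successive comparisons share the libraries of the age between them. The shares over all genes given here are the background for each count of list members below that rests on all Pr cells. At W4, counts without the cells with blood markers stand against the 265 and 666 genes above, of 13762 tested. Among cells past a cycle threshold 444 were higher and 525 lower there, of 14093. In cells of fibroblast profile these numbers were 594 and 873, of 13679.

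Of the 54 genes of the G2/M list, 43 were higher and 1 lower at E16.5 than in the early embryo, with a median log2 difference of 0.62 against 0.00 over all genes. At P0, 43 were lower and none higher than at E16.5, with a median of -0.61 against 0.01. These calls rest on both E16.5 libraries, since over all genes few calls at P0 held without 1 of them. At W4, 34 were lower and none higher than at P0, with a median of -1.01 against -0.08. Without the cells that carried blood markers 21 were lower at W4, with 18 among the cells past a cycle threshold and 37 in cells of fibroblast profile. Cells past a threshold were chosen by the sums of the S and G2/M lists themselves, so that count is partly set by the choice. Ube2c, which tags mitotic proteins with ubiquitin, had 499, 607, 738, 736, 405, 373, 188 and 129.7 CPM. Its levels in the E16.5 libraries lay above all others, and its log2 changes were 0.62 (SE 0.14, adjusted p = 0.00442), -1.04 (SE 0.14, adjusted p = 0.00262) and -1.47 (SE 0.17, adjusted p = 0.00115). Cdk1, the kinase that drives entry into mitosis, had 222, 263, 457, 450.4, 339, 339, 126.6 and 138.9 CPM, and rose 2.16-fold and then fell 1.46-fold and 2.85-fold (adjusted p = 3.86e-05, 0.0153 and 0.000431). Aurka, the kinase of the spindle poles, had 88.7, 89.1, 121, 119.8, 67.9, 49.1, 22.5 and 16.2 CPM, again highest at E16.5 and lowest at W4. The whole list summed to 11116, 11489.5, 14616, 14783.5, 11197, 10196, 5993 and 7513 CPM in Pr cells, and to 1086 to 2526 CPM in the other NETS cells.

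Fewer genes of the S list changed. At E16.5, 6 of 43 were higher and 6 lower than in the early embryo, against 25.2 and 22.7% of all genes. At P0 1 was higher and 1 lower, against 5.64 and 4.76%. The medians at E16.5 and P0 were 0.00 and 0.03. At W4, 12 were lower and none higher than at P0, with a median of -0.58. Among cells past a cycle threshold 1 was lower, without the cells with blood markers 18, and in cells of fibroblast profile 26. The first of these counts is again partly set by choosing cells on the cycle lists. Nasp, the chaperone of newly made histones, had 568, 537, 205, 209, 212, 224, 61.9 and 176 CPM. It fell 2.32-fold to E16.5, with a log2 change of -1.21 (SE 0.24, adjusted p = 0.00274), and its 2 W4 libraries were far apart. Pcna, the clamp of the DNA polymerase, had 66.6, 74.8, 94.6, 87.1, 118, 117, 109.7 and 123 CPM and rose to E16.5 with a log2 change of 0.57 (SE 0.09, adjusted p = 0.000874). Mcm6 and Cdc6, whose promoters are shown above, passed no test between successive ages. At W4 the list summed to 2337 CPM in the first and 3985 CPM in the second library, against 3937 to 4757 CPM at the other ages.

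**Figure D3:**
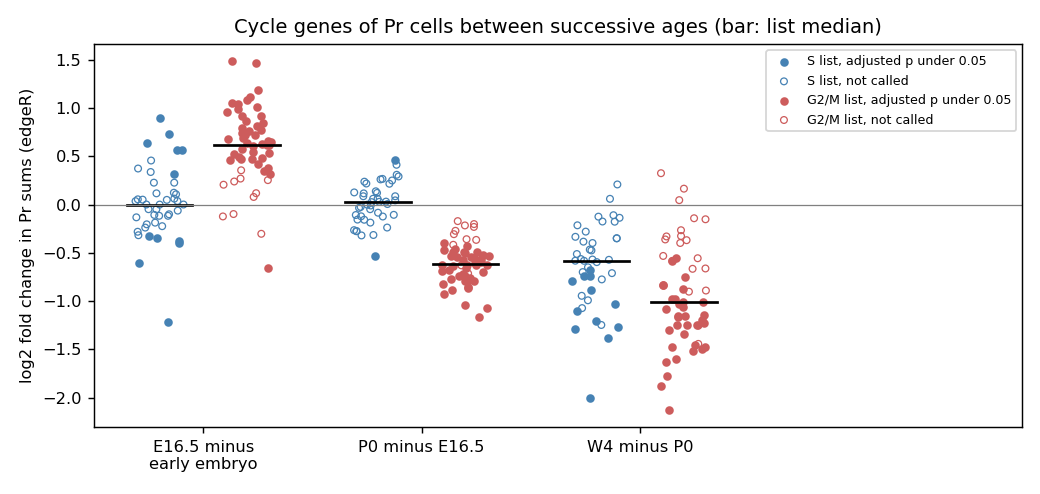
Log2 fold changes (edgeR) of the genes of the cycle lists in Pr sums between successive ages, 1 point per gene, with a bar at each list's median. G2/M genes centred on 0.62, -0.61 and -1.01, and S genes on 0.00, 0.03 and -0.58.

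The cyclins and their kinases, 13 genes, had 8 higher and 2 lower at E16.5, 1 higher and 6 lower at P0, and 1 higher and 5 lower at W4, or none and 6 without the cells with blood markers. Of all genes, 25.2% were higher and 22.7% lower at E16.5, 5.64 and 4.76% at P0 and 4.67 and 6.16% at W4, and the medians of the list were 0.45, -0.25 and -0.94 against 0.00, 0.01 and -0.08 over all genes. The mitotic members Ccna2, Ccnb1 and Cdk1 moved with the G2/M list in each of the 3 steps. Cdk1 and Ccnb2 belong to the G2/M list as well, and Ccne2 to the S list, so the lists are not independent. Ccnb1, the cyclin of mitosis, had 172.2, 184.7, 236, 250.5, 138.9, 135.9, 47.8 and 48.6 CPM, and its fall to W4 was 3.19-fold, with a log2 change of -1.67 (SE 0.16, adjusted p = 0.000581). Those of G1 took other courses. Ccnd1, the cyclin through which growth signals start the cycle, had 135.0002, 93.5, 45.6, 41.3, 70.8, 68.2, 149.1 and 101.9 CPM: it fell 2.25-fold to E16.5 and rose 1.47-fold to P0 and 1.59-fold to W4 (adjusted p = 2.27e-05, 0.0144 and 0.0349). Its kinase partner Cdk4 had 796, 618, 382, 375, 339, 354, 199.7 and 225 CPM, with falls to E16.5 and to W4 that passed the test, with log2 changes of -0.69 (SE 0.12, adjusted p = 0.00115) and -0.87 (SE 0.14, adjusted p = 0.00565). Ccne1, which with Cdk2 starts DNA synthesis, had 60.8, 72.6, 76.1, 75.1, 80.6, 96.6, 33.7 and 64.8 CPM and fell to W4 by 0.97 on the log2 scale (adjusted p = 0.0431).

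Inhibitors of the cycle were present in these cycling cells, and most rose to E16.5. Of 16 such genes, 11 were higher and none lower at E16.5, against 25.2 and 22.7% of all genes. At P0, 2 were higher and 3 lower, against 5.64 and 4.76%. At W4, 3 were higher and 4 lower, against 4.67 and 6.16%, or 2 and 3 without the cells with blood markers. Cdkn1c, the imprinted inhibitor p57 of fetal growth, had 2861, 1889, 1894, 1827, 1116, 951, 211 and 141 CPM. It was the most abundant of the inhibitors of cyclin-dependent kinases at every age, on the CPM scale of 3′ tags, and fell 1.96-fold to P0 and 6.65-fold to W4, with log2 changes of -0.97 (SE 0.16, adjusted p = 0.0063) and -2.73 (SE 0.19, adjusted p = 9.72e-05). In the other NETS cells Cdkn1c was at 2633, 2569.8, 2539, 2692, 1166, 1048, 199.9 and 235 CPM. Cdkn1a, the inhibitor p21 that p53 induces, went the other way, with 1.24, 12.54, 30.04, 28.6, 72.98, 72.7, 152 and 83.4 CPM, and rose 8.50-fold and 2.29-fold in the first 2 steps (adjusted p = 3.4e-06 and 0.00122). Cdkn2c, an inhibitor of Cdk4 and Cdk6, had 5.26, 16.54, 114, 114, 126.9, 107.5, 84.4 and 71.8 CPM in Pr cells and 0.826, 1.10, 8.91, 7.13, 6.26, 7.002, 20.7 and 16.9 CPM in the others. It rose 14.1-fold to E16.5, with a log2 change of 3.81 (SE 0.12, adjusted p = 1.1e-07). Btg2, an antiproliferative early gene, rose by a log2 change of 2.55 (SE 0.21, adjusted p = 1.19e-05) to E16.5 and fell by 1.12 on the log2 scale to W4 (adjusted p = 0.0132).

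Beside the cycle genes, the Pr cells carried transcripts of fibroblasts or of mural cells. Each cell was assigned to the label whose summed profile at its age it was closest to among labels with 20 or more cells, over 467 to 728 genes per age from which the cycle lists and histone genes had been left out, and labels were then joined into lineages. Fibroblast profiles were closest in 3298 cells (76.3%), mural profiles in 894 (20.7%), neural crest in 114, endothelium in 9 and mesothelium in 7. Applied to cells of known label in the other replicate, the same procedure gave the right lineage to 91.9 to 97.9% of cells, and to 85.2 to 94.5% of mural cells at E16.5 and P0. It recovered none of 10 neural crest cells in either E16.5 library and none of 228 mesothelial cells in the first P0 library, where the other replicate held too few for a profile, and E12.5 and E13.5 had no second library for this test. Among the cells of the other labels, 64.3% were fibroblasts, 20.7% mural and 11.5% endothelial, whereas 0.208% of Pr cells were closest to endothelium (exact 95% interval of counting error 0.0953 to 0.395%).

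The mixture changed with age. Fibroblast profiles were closest in 69.2, 94.2, 65.3, 64.8, 77.9, 76.4, 48.3 and 62.1% of the Pr cells of each library. E13.5 stood highest and the W4 libraries lowest, and the exact permutation test over all ages gave p = 0.00952. By marker lists E16.5 was lowest instead, at 59.3 and 59.7% against 68.4 and 65.4% at W4, and with profiles pooled over ages the E16.5 libraries lay between the W4 libraries. Mural profiles made up 13.1, 1.92, 34.5, 35.1, 20.8, 23.4, 41.4 and 31.03%. The share at E12.5 depended on how lineages were read, at 3.49% with profiles pooled over ages and 2.09% by marker lists. Mural profiles were rarest at E13.5, with p = 0.00952 in the exact permutation test, and at W4 the shares rested on 12 and 9 mural cells. Neither exact p stayed under 0.05 when either P0 or either E16.5 library was left out (0.0571 to 0.124), where fewer assignments are possible, or without the cells with blood markers (0.381 for fibroblast and 0.114 for mural profiles). For fibroblast profiles the exact p was also 0.0619 with 20 feature genes per label and 0.0976 with profiles pooled over ages. Neural crest profiles were found in 64 cells at E12.5 and 50 at E13.5, that is 17.2 and 3.84% of Pr cells. None were assigned at P0, where the exact 95% upper limits were 0.932 and 0.877%, or at E16.5, where recovery of the label could not be checked. Neural crest markers summed to 62.1 and 61.4 CPM in Pr cells at E16.5 and to 30.3 and 32.4 CPM in the other cells. At W4 the NC label had 7 cells in each library, too few for a profile.

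Relative to the lineages themselves, Pr cells thinned out in both. Of every 100 cells of fibroblast profile, Pr included, 19.2, 28.3, 14.5, 15.0, 9.69, 8.39, 1.04 and 0.906 were Pr cells by library. The same numbers for mural profiles were 28.3, 9.54, 19.2, 21.0, 8.48, 6.22, 1.59 and 1.34, of which the number at E12.5 rests on the share that depended on how lineages were read. At E16.5 the number was higher in mural than in fibroblast profiles in both libraries, and at P0 lower in both. The S list was on in 83.4% and the G2/M list in 86.9% of Pr cells of fibroblast profile, and in 77.4% and 88.8% of those of mural profile.

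**Figure D4:**
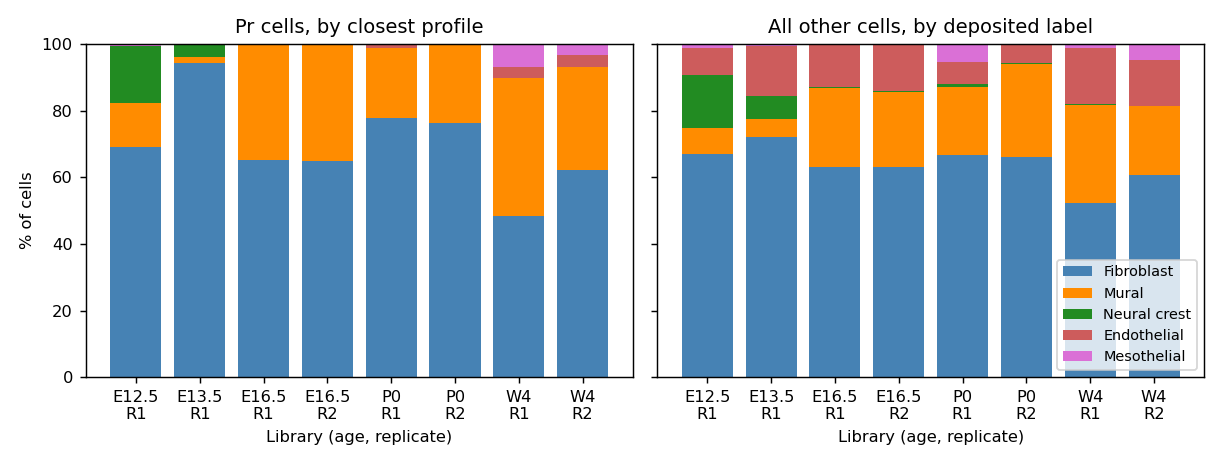
Left, the % of Pr cells of each library closest to each lineage; right, the same lineages as % of the cells of all other labels. Endothelium made up 11.5% of the other cells over all libraries and 0.208% of Pr cells, and mural profiles 20.7% of both.

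Down to single labels, the closest profiles differed by age. At E12.5 the leading ones were NC (17.2%), CapFb1b (16.6%) and CapFb1a (14.7%), the last 2 being capsular fibroblasts. The medullary fibroblast labels MedFb1a and MedFb2a led at E13.5 with 34.1 and 18.8%. However, 12 labels had enough cells for a profile at E12.5 and 17 at E13.5. MedFb2a, MedFb1b, CapFb1c and CapFb4 had too few at E12.5, so no Pr cell could be assigned to them there. Pericytes (Pc) led at E16.5 with 32.4%, followed by MedFb2a with 17.6%, and at P0 with 20.2%, followed by MedFb1b with 17.6%. At W4 Pc was closest in 20 of 58 cells. A single label was recovered less surely than a lineage, with 67.5 to 82.03% of fibroblasts and mural cells at E16.5 and P0 given their own label in the test on the other replicate.

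Mural markers were also higher in the summed counts. Of 8 mural markers, all 8 were higher at E16.5 than in the early embryo with a median log2 difference of 2.95, and 4 were lower and none higher at P0. In the Pr cells of fibroblast profile alone all 8 were higher at E16.5 too, with a median of 2.26. Higd1b, a pericyte gene, had 0, 0.338, 162, 147.8, 74.6, 77.4, 81.6 and 57.9 CPM and passed the test to E16.5 (adjusted p = 4.74e-08), from 0 UMIs at E12.5 and 7 at E13.5. Rgs5, a regulator of G-protein signalling in pericytes, had 138.6, 36.2, 544, 565, 549, 658, 886 and 1202 CPM and a log2 change of 3.17 (SE 0.19, adjusted p = 1.68e-06) to E16.5. Of 8 fibroblast markers, 6 were higher and 1 lower at E16.5, 5 were higher at P0 and 3 at W4, with none lower at the last 2 ages, or 1 lower at W4 without the cells with blood markers. Dcn, the proteoglycan that binds collagen fibrils, had 29.1, 411, 2160.2, 2087, 4335, 3968, 9553 and 8745 CPM, and each step passed the test (log2 changes 4.48, 0.84 and 0.97). Pdgfra, the growth factor receptor of fibroblasts, was between 92.6 and 199.7 CPM, lower at E16.5 and higher at P0 (log2 changes -0.44 and 0.49, adjusted p = 0.0065 and 0.0206). All 7 tested neural crest markers were lower at E16.5, among them Foxd3, a transcription factor of neural crest, with 98.9, 20.1, 0, 0.0560, 0.158, 0, 0 and 0 CPM. The defining endothelial markers Pecam1, Cdh5 and Cldn5 were at 3.32 and 4.82 CPM, 3.12 and 5.15 CPM and 1.33 and 2.07 CPM in the Pr cells of E16.5, against 122.4 and 127.005, 104.5 and 104.9, and 73.1 and 72.8 CPM in the other cells. All 8 endothelial markers summed to 207 and 222 CPM in Pr cells there and to 869 and 864 CPM in the other cells. Most of the sum in Pr cells came from Emcn and Esam, at 83.0 and 90.3 CPM and 83.0 and 84.3 CPM. Of 7 endothelial markers tested, 3 were higher at E16.5 and 3 lower at P0, and 201 Pr cells of the second E16.5 library held 3 or more of the 8.

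At W4, Pr cells carried more hematopoietic transcripts than the other cells of their libraries. The 12 hematopoietic markers summed to 8.36, 7.96, 27.0, 31.9, 135.4, 32.2, 616 and 998 CPM in Pr cells and to 10.7, 14.1, 30.8, 35.8, 65.2, 35.8, 152 and 77.0 CPM in the other cells. Ptprc, which encodes CD45 and was gated out in the sort, had a UMI in 20.7% of the Pr cells of each W4 library, against 8.99 and 5.25% of the other cells there, with median depths of 7562 and 13047 UMIs in Pr and 10052 and 11825 UMIs in the other cells. Of 11 hematopoietic markers tested, 7 were higher and none lower at E16.5 than in the early embryo, or 6 of 9 without the cells with blood markers. Again 7 were higher at W4 than at P0, among them Cd3g, a chain of the T-cell receptor complex, with 20.7 and 5.97 CPM at P0 and 109.7 and 171 CPM at W4. The 8 mesothelial markers summed to 1119 CPM in the first W4 library and 189.9 CPM in the second, and to 16.47 to 98.6 CPM at the other ages, against 160.6 and 449 CPM in the other cells at W4. The 9 erythroid markers reached 17317 CPM in the second W4 library, 1868 CPM in the first P0 library and 1.24 to 288 CPM in the other 6, against 3277 and 5119 CPM in the other cells at W4. Muscle and cartilage markers summed to 383 CPM in the first P0 library and to 57.3 CPM in the second, and epithelial markers to 4.91 to 23.1 CPM before W4 and 126.6 and 27.8 CPM at W4, where the other cells had 36.6 and 32.7 CPM. Mesothelial and epithelial markers were thus above the other cells in the first W4 library and below them in the second, and erythroid markers the other way round. Epcam, gated out in the sort, had a UMI in 9.65% of Pr cells and 3.57% of the other cells at E12.5. Leaving out the Pr cells that carried hematopoietic or erythroid markers left 16 and 7 cells at W4.

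From the early embryo to E16.5, markers of mural cells and matrix genes rose in Pr cells, while those of neural crest and pharyngeal patterning fell. Of the genes picked by size of change, those higher at E16.5 were Higd1b, Il34, Vtn, Agt, Aoc3, Hbb-bs, Sp100, Sele, Clec3b and Igfbp7. Igfbp7, a secreted protein that binds growth factors, had 4.33, 9.98, 858, 852, 1707, 1875, 2584 and 2887 CPM and rose 149.2-fold, with a log2 change of 7.22 (SE 0.18, adjusted p = 7.01e-08). Vtn, the adhesion protein vitronectin, and Aoc3, an amine oxidase of mural cells, had 0 UMIs at E12.5 and 130.6 and 128 CPM and 101.3 and 91.6 CPM at E16.5. Hbb-bs, adult beta globin, shares reads with a near-identical copy and is uncertain. Those lower included Nefl, Adamts18, Foxd3, Col9a1, Crabp2, Nnat, Hmga2, Ttyh1 and Foxd1. Hmga2, the chromatin protein of embryonic growth, had 540.2, 220.4, 1.72, 1.96, 1.58, 0.583, 0 and 0 CPM and fell 160.8-fold, with a log2 change of -7.33 (SE 0.18, adjusted p = 1.09e-07). Crabp2, which carries retinoic acid, had 230.2, 37.2, 0.332, 0.560, 0.790, 0.291, 0 and 0 CPM, a 171.8-fold fall. At W4 both had 0 UMIs in Pr cells, where that count allows up to 8.44 and 6.95 CPM, which is above their levels at P0.

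Of 20 factors that pattern pharyngeal mesenchyme, 15 were lower and 2 higher at E16.5, with a median log2 difference of -1.23. Tbx1, a T-box factor of the pharyngeal pouches and arches, had 39.8, 4.05, 1.19, 1.06, 1.90, 0.583, 0 and 0 CPM and fell 9.71-fold, with a log2 change of -3.28 (SE 0.34, adjusted p = 0.000103), with E12.5 far above E13.5. Foxd1 had 109 and 19.9 CPM in the early embryo and 0.398 and 0.392 CPM at E16.5. Prrx1, a homeobox factor of limb and craniofacial mesenchyme, went the other way with 184.9, 332, 511, 519.8, 408, 436, 363 and 373 CPM and a log2 change of 1.26 (SE 0.11, adjusted p = 2.29e-05). At P0, 4 were higher and 1 lower, against 5.64 and 4.76% of all genes, and at W4 1 was lower, or 1 higher and 1 lower without the cells with blood markers. Twist1, a factor of mesenchymal cells, stayed between 85.7 and 198 CPM and passed no test between successive ages.

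Fetal growth genes fell late. Of 17 imprinted genes tested, 8 were higher and 5 lower at E16.5, against 25.2 and 22.7% of all genes. At P0, 4 were lower, against 4.76% of all genes. At W4, 13 were lower and none higher, against 6.16 and 4.67%, with a median log2 difference of -2.63. The count was also 13 without the cells with blood markers, in cells past a cycle threshold and in cells of fibroblast profile. Dlk1, which restrains differentiation of mesenchymal precursors, had 579, 2045, 4600.4, 4379, 2823, 3368, 5.62 and 25.5 CPM and fell 211-fold to W4, with a log2 change of -7.72 (SE 0.34, adjusted p = 3.49e-05). Mest, an imprinted gene of mesoderm, had 1424, 1932, 1310.2, 1286, 1064, 1095, 89.99 and 13.9 CPM, a 24.7-fold fall with a log2 change of -4.63 (SE 0.43, adjusted p = 0.000431). The zinc-finger factor Plagl1, which activates other imprinted genes, had 142, 237, 303, 298, 273, 258, 22.5 and 2.32 CPM, with a log2 change of -4.70 (SE 0.36, adjusted p = 0.000185). H19, a growth-restraining noncoding RNA, had 1301, 1410.3, 1176, 1120.4, 1575, 1652, 332 and 401 CPM, a 4.92-fold fall. Igf2, the fetal growth factor next to H19, had 257 and 272 UMIs at P0 and none in either W4 library, against 40.6 and 39.6 CPM at P0. The list summed to 14149 and 15277.5 CPM at P0 and 3783 and 3253 CPM at W4 in Pr cells, and to 14804 and 15874 CPM and then 3138 and 3367 CPM in the other NETS cells.

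A second fetal group, the oncofetal RNA-binding and chromatin proteins, fell early. Of 10 tested, 9 were lower and none higher at E16.5, with a median of -1.92. At P0 1 was lower, against 4.76% of all genes, and at W4 2 were lower and 1 higher, against 6.16 and 4.67%. Igf2bp1, which stabilizes growth mRNAs, had 166.7, 107.6, 34.3, 36.5, 13.7, 21.9, 0 and 0 CPM, and Igf2bp3 had 142, 101.7, 63.7, 64.1, 61.6, 64.4, 8.44 and 9.26 CPM. Both were highest at E12.5 and lowest at W4. Igf2bp1 changed by -1.71 to E16.5 and -1.11 to P0 on the log2 scale (adjusted p = 3.99e-05 and 0.00887), and Igf2bp3 by -0.71 to E16.5 and -2.99 to W4 (adjusted p = 0.000108 and 0.000431). Without the cells with blood markers 1 was lower and none higher at W4. The gene higher with all cells was Hmga1, with 8 and 6 UMIs at P0 and 2 and 6 UMIs at W4, or 1.26 and 0.874 CPM and then 5.62 and 13.9 CPM.

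Matrix genes rose before birth. Of 26 matrix genes, 22 were higher and none lower at E16.5 than in the early embryo, with a median log2 difference of 1.78, and 6 were higher and none lower at P0, or 15 higher and 1 lower without the cells with blood markers. In the cells of fibroblast profile 22 were higher at E16.5 as well, while the mural share of Pr cells was higher at that age too. At W4, 4 were higher and 5 lower, against 4.67 and 6.16% of all genes. The list median there was -0.01, or 0.05 with DESeq2's size factors. Without the cells with blood markers it was -0.48, where the median over all genes was -0.32. Col15a1, a collagen of basement membranes, had 0.464, 5.06, 176, 179.7, 485, 532, 768 and 889 CPM, with log2 changes of 7.04 (SE 0.20, adjusted p = 1.06e-07), 1.39 (SE 0.13, adjusted p = 0.00078) and 0.54 (SE 0.13, adjusted p = 0.0323). Sparc, which helps collagen assemble, had 1089, 959, 3387, 3291, 5088, 4262, 10819 and 8303 CPM, and rose at E16.5 and W4 (log2 changes 1.91 and 0.86, adjusted p = 1.19e-05 and 0.009). Fbn2, the fibrillin of fetal tissue, had 233, 425, 417, 417, 345, 367, 126.6 and 116 CPM and fell by 1.72 on the log2 scale to W4, while Fbn1, the fibrillin of adult tissue, had 95.4, 114.9, 229.7, 236, 302, 298, 875 and 472 CPM and rose 1.98-fold (adjusted p = 0.000239 and 0.0211).

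Most genes of antigen presentation by MHC class I rose at each step, but fewer passed the test at W4 without the cells with blood markers. Of 12 tested, 12 were higher at E16.5, 11 at P0 and 8 at W4, with none lower and medians of 4.17, 1.02 and 1.32. H2-K1, a class I heavy chain, had 0.774, 0.723, 27.7, 19.2, 114, 98.1, 872 and 553 CPM. From E16.5 on each age lay above the one before without overlap, with log2 changes of 5.14 (SE 0.37, adjusted p = 5.41e-06), 2.06 (SE 0.21, adjusted p = 0.00107) and 2.57 (SE 0.21, adjusted p = 0.000274). B2m, the light chain of all class I molecules, had 59.0, 74.8, 294, 279.8, 478, 499.8, 931 and 963 CPM with rises of 4.97-fold, 1.57-fold and 1.73-fold (adjusted p = 8.34e-07, 0.00864 and 0.00448). Heavy chain genes share sequence, so the division of reads among H2-K1, H2-D1 and H2-Q4 is uncertain. Without the cells with blood markers, 3 of the 12 were higher at W4, and 7 among cells past a cycle threshold. Over all genes fewer were called higher in both settings as well. Leaving out cells with blood markers left 16 and 7 cells at W4, where the list median was 0.67 against -0.32 over all genes. In the Pr cells of fibroblast profile 8 of the 12 were higher at W4, with a median of 1.05. The list was lower in Pr than in the other NETS cells of the same W4 libraries, at 3695 and 3198 against 5873 and 5118 CPM.

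Interferon-stimulated genes rose early. All 20 were higher at E16.5, against 25.2% of all genes, with a median of 4.21. At P0 1 was higher and 1 lower, near the 5.64 and 4.76% of all genes. At W4 1 was higher, against 4.67% of all genes, or 1 higher and 1 lower without the cells with blood markers. Ifitm3, which blocks viral entry into cells, had 62.2, 326, 1931, 1890.3, 1682, 2231, 2115 and 1915 CPM, and Isg15, a ubiquitin-like protein, had 0.619, 5.59, 71.4, 78.5, 61.5, 95.4, 115.3 and 53.3 CPM. E13.5 lay above E12.5 for both, and the log2 changes to E16.5 were 3.95 (SE 0.18, adjusted p = 4.06e-07) and 5.52 (SE 0.34, adjusted p = 2.11e-06).

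**Figure D5:**
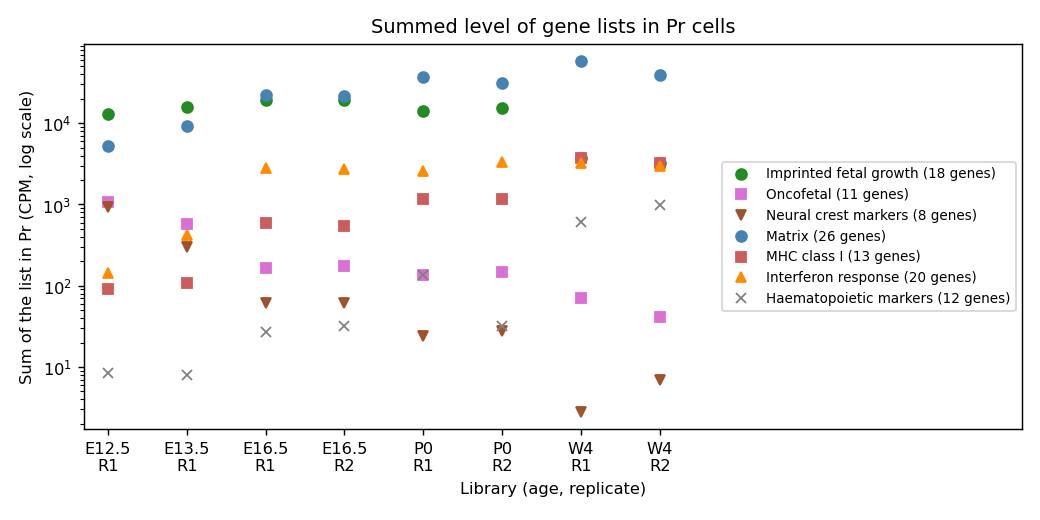
Summed level of 7 gene lists in the Pr cells of each library, in CPM on a log scale, 1 point per list and library. Neural crest markers went from 932 CPM at E12.5 to 2.81 and 6.95 CPM at W4, imprinted genes were at 3783 and 3253 CPM at W4 beside the MHC class I genes at 3695 and 3198 CPM, and hematopoietic markers were highest at W4.

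Factors by which stroma supports the thymus moved in both directions. Of 16, 8 were higher and 6 lower at E16.5, against 25.2 and 22.7% of all genes. At P0, 6 were higher and 1 lower, against 5.64 and 4.76%. At W4, 5 were higher, against 4.67% of all genes, or 2 of 15 without the cells with blood markers. Cxcl12, the chemokine that draws progenitors, had 538, 335, 60.7, 56.2, 143.8, 122.1, 208 and 215 CPM: it fell 6.32-fold and rose again 2.09-fold and 1.42-fold (adjusted p = 3.99e-07, 0.00122 and 0.0476). Igf1, a growth factor, had 170.5, 247, 88.9, 76.7, 247, 179.2, 529 and 431 CPM, with log2 changes of -1.11 (SE 0.16, adjusted p = 0.000395), 1.24 (SE 0.16, adjusted p = 0.00245) and 1.001 (SE 0.17, adjusted p = 0.00851). Wnt5a, a Wnt ligand, had 106.7, 42.4, 9.95, 9.19, 21.8, 15.6, 98.4 and 71.8 CPM and a like course, falling 6.11-fold and rising 1.79-fold and 4.03-fold. Il33, an alarmin, had 0.774, 6.94, 43.6, 34.1, 78.7, 58.7, 126.6 and 123 CPM, and Fgf10, a growth factor for epithelium, had 3.72, 37.8, 32.8, 34.6, 40.1, 40.5, 30.9 and 71.8 CPM. The rises of both to E16.5 passed the test (adjusted p = 1.61e-06 and 6.08e-05).

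Among 19 receptors of growth factors tested, 5 were higher and 5 lower at E16.5, near the 25.2 and 22.7% of all genes. At P0, 5 were higher, against 5.64% of all genes, and at W4 1 was higher and 2 lower, or 1 and none without the cells with blood markers. Pdgfrb, the receptor of mural cells, had 70.4, 110.01, 206, 213, 166, 209, 256 and 150.5 CPM and rose to E16.5 with a log2 change of 1.46 (SE 0.17, adjusted p = 0.000125). Ednrb, the endothelin receptor of neural crest, had 278, 87.3, 19.96, 22.7, 25.1, 27.2, 16.9 and 4.63 CPM and fell 6.33-fold (adjusted p = 4.37e-07). Tgfbr2, a receptor of TGF-beta, rose at every step with 14.9, 27.0, 42.8, 42.2, 67.6, 70.2, 205 and 97.2 CPM (log2 changes 1.29, 0.58 and 0.93, adjusted p = 0.000292, 0.0497 and 0.0366).

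From E16.5 to P0 fewer genes changed, and few of the calls held without 1 of the E16.5 libraries, as given above. Genes picked as higher included Col2a1, Eln, C3, Fbln5, Has1, Angptl4, H2-K1, Apoe and Thbs3. With 29 Pr cells drawn per library, Col2a1, Fbln5, Has1, Angptl4 and H2-K1 did not pass, nor did Emcn, Fabp7, Cox4i2, Hspb1 and Rasgrp2 below. Has1, which makes hyaluronan, had 0.310, 2.60, 16.4, 16.6, 96.4, 109, 109.7 and 101.9 CPM and rose 5.71-fold, with a log2 change of 2.51 (SE 0.10, adjusted p = 1.58e-05), and Apoe, a carrier of lipids, had 95.4, 65.9, 107.2, 111, 424, 486, 430.3 and 979 CPM and rose 3.84-fold (adjusted p = 0.0045). Col2a1, the collagen of cartilage, had 305 and 1.89 CPM in the P0 libraries, and Eln, elastin, 2207 and 295 CPM, so that the first P0 library carried most of both. Those picked as lower were Hspa1a, Emcn, Hspa1b, Fabp7, Cox4i2, Hspb1, Cited2, Slc12a2, Rasgrp2 and Cisd3. Of these, Hspa1a and Hspa1b are near-identical copies of the inducible Hsp70 gene, with reads that may be divided wrongly between them. Hspa1a had 104, 395, 651, 669, 179.1, 139.7, 1007 and 609 CPM, rising, falling and rising again, and all 3 steps passed the test. Cox4i2, an oxygen-regulated subunit of cytochrome oxidase, had 27.1, 83.7, 352, 333, 112.8, 166, 169 and 101.9 CPM and fell 2.67-fold (adjusted p = 0.00306).

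From P0 to W4, 6 of 8 mesothelial and 7 of 11 hematopoietic markers rose, and without the cells with blood markers 8 of 8 and 0 of 9. The cells left out were chosen by hematopoietic or erythroid markers, so the hematopoietic count largely follows from that choice. In the Pr cells of fibroblast profile alone, 0 of 5 mesothelial and 1 of 10 hematopoietic markers tested were higher. These cells were chosen as closer to fibroblast than to mesothelial profiles, so the mesothelial values in them are no separate test. Mesothelial profiles were closest in only 2 and 1 Pr cells of the W4 libraries. Those picked as higher were Inmt, Cilp, Dntt, Cpxm2, Pi16, Dmkn, Msln, Mmp3, Itgbl1 and Ly6d. Pi16, a marker of adult fibroblast progenitors, had 0.464, 0.434, 22.0, 19.9, 28.8, 9.03, 1867 and 317 CPM and rose 50.7-fold, with a log2 change of 5.67 (SE 0.74, adjusted p = 0.00221). Cilp, a matrix protein, had 11 and 9 UMIs at P0 and 81 and 22 at W4 with a log2 change of 6.30 (SE 0.71, adjusted p = 0.00116). Dntt, the DNA polymerase of developing lymphocytes, had 29 and 83 UMIs at W4, or 81.6 and 192.2 CPM. Without the cells with blood markers its log2 change was 1.77 and did not pass the test, like those of Mmp3, a matrix protease (3.24), and Ly6d, a lymphoid and epithelial surface protein (3.36). Msln, the mesothelial surface protein, had 90 and 15 UMIs at W4 and had a log2 change of -6.20 (adjusted p = 0.713) in the Pr cells of fibroblast profile alone. Complement C3 was at 0, 0.0965, 7.63, 8.79, 41.7, 69.4, 1375 and 1429 CPM and rose 22.4-fold (adjusted p = 4.04e-05).

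Those picked as lower at W4 included Dlk1, Agtr2, Sele, Egr2, Plagl1, Mest, Cxcl10, Cdo1 and Rgs16. Agtr2, the angiotensin receptor of fetal mesenchyme, had 6.19, 15.7, 167.2, 164, 176, 172.1, 2.81 and 0 CPM, which are 1114 and 1181 UMIs at P0 and 1 and 0 at W4. Rgs16, a regulator of G-protein signalling, had 6.50, 22.2, 435, 433, 545, 713, 84.4 and 32.4 CPM and fell 12.53-fold, with a log2 change of -3.65 (SE 0.30, adjusted p = 0.000239). Cxcl10, a chemokine that interferon induces, had 0.619, 11.8, 294, 313, 414, 677, 5.62 and 55.6 CPM and fell 18.7-fold (adjusted p = 0.00123), with a wide gap between the W4 libraries. Immediate early and stress genes also moved: of 16, 15 were higher and 1 lower at E16.5, against 25.2 and 22.7% of all genes. At P0, 5 were higher and 3 lower, against 5.64 and 4.76%. At W4, 3 were higher and 13 lower, against 4.67 and 6.16%, or 2 and 12 without the cells with blood markers. Junb, a member of the AP-1 factors, had 114, 339, 1682, 1739, 2627, 2629.6, 883 and 704 CPM and fell by 1.90 on the log2 scale to W4 (adjusted p = 0.000142). The 3 that rose were the heat shock genes Hspa1a, Hspa1b and Hsp90aa1. Such genes are known to respond to tissue dissociation.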

How the data were processed

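Single-cell RNA sequencing of sorted NETS gave the authors' deposited UMI counts per gene and cell (22231 genes), used with the deposited cluster and cell labels. The authors processed reads with Cell Ranger 3.1.0, and mm10 is among the builds of the submitters' notes. They dropped cells with few genes or many mitochondrial UMIs, doublets and Ptprc-expressing clusters, which bears on the blood markers given above, and clustered cells on the integrated data. UMI counts of the Pr cells were summed per library, 8 sums at 5 ages, and fitted with age as the only term in edgeR 4.0.16 (TMM, its default filter on low counts, quasi-likelihood test, Benjamini-Hochberg adjusted p under 0.05, 3 residual degrees of freedom). DESeq2 1.42.0 in R 4.3.3 was the alternative tool, and Python 3.11.15 gave the exact tests. Named genes were the 10 called genes with the largest change per direction and a mean of at least 50 CPM, besides genes of the lists, and a few of them are not reported here. The members and lists were chosen with earlier results of these data known. Newborn Tbx1 and Crkl samples and bulk libraries were not used here.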

Additional observations from a re-analysis of the deposited data

How the results depend on the processing

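The numbers of changed genes depended most on the E16.5 libraries and on the number of cells. With 1 library left out at a time, 4244 to 9668 genes differed by age, 3074 to 8375 between the early embryo and E16.5, 2 to 2497 between E16.5 and P0, and 698 to 1937 between P0 and W4. The low ends came from leaving out an E16.5 library, and P0 against E16.5 gave 2497 genes without the second P0 library and 2309 or 2325 without the first or the second W4 library. With 29 Pr cells drawn per library, 2083 genes differed by age, and 1266, 59 and 474 in the 3 steps, with fewer genes tested. From P0 to W4, 931 genes differed without the cells with blood markers and 969 among cells past a cycle threshold, and 2022 with no filter on low counts. P0 against E16.5 gave 2344 genes without the W4 libraries.

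The change of the Pr share on the log2 scale was between -4.55 and -4.20 when a library was left out. With the replicate number as a block it was -4.29 (edgeR adjusted p = 0.00208), and 6872, 5681, 1418 and 1572 genes differed by age and in the 3 steps. Equal replicate numbers did not pair the libraries, since the correlations of their deviations from the age means were -0.01, 0.02 and -0.03.

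Between the early embryo and W4 the share with the S list on changed by -40.0 percentage points in cells of fibroblast profile, -36.3 at 2000 UMIs and -45.1 without the cells with blood markers. The G2/M share changed by -57.1 points in cells of fibroblast profile and by -60.9 to -34.8 with 1 library left out. For fibroblast profiles the change was -24.6 points with 20 feature genes per label, -28.2 with profiles pooled over ages and -27.2 without the cells with blood markers. It was -19.8 by marker lists and -39.1 to -14.0 with 1 library left out. The exact test over all ages, which did not test this change itself, passed by marker lists (exact p = 0.00476). It did not pass with 20 feature genes, with pooled profiles or without the cells with blood markers. Mural profiles changed by 31.8 points without the cells with blood markers and by 23.1 to 34.3 with 1 library left out. Endothelial profiles changed by 3.45 points with any 1 library left out and by -0.0798 by marker list. Leaving out 1 library gave -13.5 to -8.72 points for cluster 9, -0.578 to 16.7 for cluster 10 (reversed without the first W4 library) and -3.83 to 9.96 for cluster 11 (reversed without the second W4 library, and at -1.75 without E13.5). Median depth of Pr cells changed by -8446.5 to -2961.5 UMIs. Among values of single named genes, 936 of the alternatives stayed on their side of the threshold, 63 lost the call and 1, Msln in cells of fibroblast profile (-6.20), turned. Named genes lost their call most often without 1 of the E16.5 libraries and with 29 Pr cells drawn per library. The causes were not tested. Depth limits W4 most, where a count of 0 in 29 cells still allows up to 8.44 and 6.95 CPM.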
